A study of Mus musculus with 6 samples.

Results

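Interferon response genes are the genes that cells switch on when they sense interferon, the signal of viral and other infections. The set described here holds 39 genes, chosen as named interferon-stimulated genes of the mouse and found by Ensembl identifier. All 39 were among the 54532 gene rows of the deposited table. The RNA came from whole dorsal root ganglia, which house the cell bodies of sensory neurons, taken from C57BL/6 mice at post natal week 8 and sequenced in bulk. In the knockout (Hdac2 cKO, 3 libraries, Adv-Cre+/hdac2-flop++) Cre recombinase under the Advillin promoter, active in primary sensory neurons, deletes the floxed gene of the histone deacetylase HDAC2. Littermates of the genotype hdac2-flop++ without Cre (WT, 3 libraries) were the controls, so that both groups carried floxed Hdac2 and no group carried Cre alone. The sources used here do not say how many mice went into a library.

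Type I interferons bind the receptor IFNAR1 and IFNAR2, which acts through the kinases JAK1 and TYK2. These kinases lead to the assembly of the complex ISGF3, which holds STAT2 and IRF9 and binds the interferon-stimulated response element (ISRE) in the promoters of its targets. Interferon gamma, a product of lymphocytes, acts through another receptor, through the gamma-activated site (GAS) in promoters and through the factor IRF1. Guanylate-binding proteins (GBPs) and immunity-related GTPases (IRGs) are the best known gamma-induced products in the mouse, where they attack vacuoles that hold intracellular parasites and bacteria. IFIT, OAS, MX and ISG15 are known mainly as type I products that act on viral RNA and proteins.

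RefSeq promoter windows (GRCm38.p6, the assembly of mm10), from 250 bases before to 50 bases after each annotated start, were at hand for 28 of the 39 genes. The other 11 are Iigp1, Usp18, Rtp4, Ifi27, Dhx58, Parp9, Mx1, Mx2, Zbp1, Oas2 and Parp14. RefSeq starts can differ from the GENCODE gene starts given further on. Each window was searched for an ISRE core, GAAA, any 2 bases and GAAA again on either strand, and for a GAS core, TTCNNNGAA, which reads the same on both strands. An ISRE core was found in 16 of the 28 genes (57.1%), against 3.99% of 27025 genes with a window. A GAS core was found in 8 of the 28 (28.6%), against 9.55%. All 6 GBP and IRG genes with a window held an ISRE core, and 3 of them also held a GAS core. A match is a description of the letters, the genes were chosen as known interferon targets, and the GAS search was added after values were seen. Of the 9 GAS matches 1 overlapped an ISRE match, in Bst2. ISRE matches that overlap each other run together below.

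The sequences below are printed 5′ to 3′ on the gene's strand, with ISRE cores in capitals. The first 5 are the genes with an ISRE core that had the highest mean read count. They lie at Stat2 chr10:128270248-128270497 on the plus strand, Ddx58 chr4:40239804-40239833 on the minus strand, Gbp2 chr3:142620413-142620662 on the plus strand, Bst2 chr8:71537473-71537722 on the minus strand and Gbp7 chr3:142530086-142530335 on the plus strand. For Ddx58, whose match lies just after the start, only the site with 10 bases on each side is shown, and for the others the 250 bases before the start.
Stat2: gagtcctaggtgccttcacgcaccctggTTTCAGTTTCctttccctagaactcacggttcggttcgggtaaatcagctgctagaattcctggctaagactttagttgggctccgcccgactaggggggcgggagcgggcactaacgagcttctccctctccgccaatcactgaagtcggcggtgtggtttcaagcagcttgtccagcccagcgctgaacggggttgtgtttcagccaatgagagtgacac
Ddx58: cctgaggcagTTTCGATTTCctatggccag
Gbp2: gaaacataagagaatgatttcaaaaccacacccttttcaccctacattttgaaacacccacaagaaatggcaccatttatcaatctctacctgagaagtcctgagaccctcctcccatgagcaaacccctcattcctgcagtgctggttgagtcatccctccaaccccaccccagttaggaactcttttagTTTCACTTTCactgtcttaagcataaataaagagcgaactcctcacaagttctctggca
Bst2: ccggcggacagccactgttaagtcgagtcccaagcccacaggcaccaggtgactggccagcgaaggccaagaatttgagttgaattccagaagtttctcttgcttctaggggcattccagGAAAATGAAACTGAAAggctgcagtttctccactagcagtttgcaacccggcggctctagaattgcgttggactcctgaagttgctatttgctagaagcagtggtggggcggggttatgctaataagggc
Gbp7: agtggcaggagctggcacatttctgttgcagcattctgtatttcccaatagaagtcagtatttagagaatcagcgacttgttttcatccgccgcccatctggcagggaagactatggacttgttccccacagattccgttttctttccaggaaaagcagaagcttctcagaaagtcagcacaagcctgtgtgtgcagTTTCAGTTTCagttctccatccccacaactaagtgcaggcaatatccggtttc

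A further 5, chosen after their values were seen, show the 120 bases before the start. Igtp, Irgm2 and Irgm1 are shown as GTPase genes for which 1 library, Hdac2 cKO 1, was far above the others, and Ifit1 and Isg15 as members for which it was not the highest. They lie at Igtp chr11:58199436-58199555 on the plus strand, Irgm2 chr11:58214857-58214976 on the plus strand, Irgm1 chr11:48871421-48871540 on the minus strand, Ifit1 chr19:34640769-34640888 on the plus strand and Isg15 chr4:156200819-156200938 on the minus strand.
Igtp: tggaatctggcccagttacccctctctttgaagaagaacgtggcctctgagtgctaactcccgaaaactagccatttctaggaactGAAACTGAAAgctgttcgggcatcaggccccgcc
Irgm2: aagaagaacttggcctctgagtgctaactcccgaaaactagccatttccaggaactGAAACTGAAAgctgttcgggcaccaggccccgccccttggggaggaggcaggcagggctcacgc
Irgm1: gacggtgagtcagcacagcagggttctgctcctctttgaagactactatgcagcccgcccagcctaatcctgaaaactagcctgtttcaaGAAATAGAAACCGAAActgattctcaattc
Ifit1: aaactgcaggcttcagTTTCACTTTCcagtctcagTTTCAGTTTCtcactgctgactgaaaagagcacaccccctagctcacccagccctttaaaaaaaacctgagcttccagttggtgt
Isg15: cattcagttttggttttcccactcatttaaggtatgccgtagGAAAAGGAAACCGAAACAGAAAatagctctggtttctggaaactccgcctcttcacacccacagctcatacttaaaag
Igtp and Irgm2 each had a GAS core 11 bases before the first base of the ISRE core, at -45 and -34 in Igtp and at -75 and -64 in Irgm2, counted back from the start. Both genes thus carried a GAS and an ISRE core at the same distance. The GAS letters were TTCTAGGAA in Igtp and TTCCAGGAA in Irgm2. The printed bases around the cores are nearly identical between the genes, so these are not separate cases of the arrangement. In Isg15, 3 ISRE matches overlapped, and Ifit1 held 2 that did not.

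Reads assigned to genes totalled 18943595 to 42070531 per library. All values that follow are normalised read counts (reads over the library's size factor), always in the order of libraries 1, 2 and 3. Hdac2 stood at 2816, 1715 and 3498 in WT and 499, 372 and 535 in Hdac2 cKO, lower in every knockout library, with a log2 fold change of -2.47 (SE 0.31) and an adjusted p by limma of 0.927. All 11 sensory neuron markers were above 0 in every library. WT 3 stood apart from the other libraries: it held the highest value for 30.5% of the 18410 genes tested and the lowest for 40.7%. In WT 2, 42.4% of the counts from 1 to 20 were even, against 60.2 to 64.4% in the other libraries, a difference whose effect on these values was not tested. WT 2, WT 3 and Hdac2 cKO 2 held Y-linked reads in number, and the other 3 libraries almost none.

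The first comparison asked whether the 39 genes differed between knockout and control ganglia. Of these, 32 had a log2 fold change (Hdac2 cKO minus WT, on log2 of the normalised count + 1) above 0, with a median of 0.42, where 55.3% of all genes tested were above 0 and the median was 0.06. None of the 39 passed the test by limma with Benjamini-Hochberg adjustment (adjusted p 0.927 to 0.996), nor did any other gene (0% of 18410). At an unadjusted p under 0.05 the count was 0 of 39 by limma, where 1.85% of all genes were, and it was 0 by edgeR (2.14% of all genes) and 1 by DESeq2 (3.63%). After adjustment edgeR and limma-voom called 0 of 39 (0% of all genes) and DESeq2 0 of 39 (0.152%). With limma's array weights, which weight each library by its spread, Ifit1, Oas3 and Ddx58 were called higher (adjusted p 0.0446, 0.0338 and 0.0395), where 3.08% of all genes were called. WT 2 then had a weight of 4.17 and WT 3 of 0.101. With the replicate number as a block, 8 members were at an unadjusted p under 0.05 by limma, where 5.94% of all genes were, and 0 passed after adjustment. All 39 confidence intervals (95%) held 0, and those of 32 also held a log2 fold change of 1, so that for those 32 a 2-fold difference lay within the error. All 39 passed the filter of 10 or more in at least 3 libraries.

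Among single libraries left out without pairing, Hdac2 cKO 1 moved the median most. Without it, 22 of 39 members were above 0, against 55.2% of all genes, and the median was 0.04, below the median of all genes at 0.05. Without WT 2 the median was 0.23, and with Y-linked reads as a term it was 0.25. Without WT 3 there were 33 of 39 above 0, where 48.6% of all genes were, and without both WT 3 and Hdac2 cKO 1 there were 19 (48.5% of all genes). Leaving out WT 1, WT 3, Hdac2 cKO 2 or Hdac2 cKO 3 alone gave medians from 0.33 to 0.60. The plot of differences with and without Hdac2 cKO 1 shows how each member moved.

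That comparison leaves WT 1 in, a library that was also high for many members, so the same-numbered libraries were also compared as pairs. Of the 39 members 19 were higher in the knockout library of all 3 pairs, where 18.2% of all genes were, and 0 were lower in all 3 (14.6% of all genes). The 19 included Stat2, Irf7, Irf9, Ifit3, Oasl2, Dhx58, Trim25, Dtx3l and 5 of the 7 GBP and IRG genes (Gbp2, Gbp3, Gbp7, Igtp and Irgm2). The count takes in any difference above 0, however small. In log2, Gbp3 differed by only 0.022 in pair 2 and Irgm2 by 0.071 in pair 3. Oasl2 differed by 0.044 and 0.046 in pairs 2 and 3. By pair, 36, 32 and 23 members were higher in the knockout library, with median log2 differences of 0.56, 0.36 and 0.16, against 0.0029, 0.0019 and 0.12 over all genes. With the replicate block and both libraries numbered 1 left out, 28 members were above 0 and the median was 0.28, against 0.08 for all genes. That fit, chosen after values were seen, kept WT 2 and WT 3 as its only WT libraries. Its median was below that of all 6 libraries and above that of all genes. Without WT 3 and Hdac2 cKO 1, also chosen after values were seen and without a block, the median was -0.03, against -0.01 for all genes. The result thus differed with the libraries left out. No member passed limma's test in either fit, and the labels do not state that numbers mark pairs.

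**Figure D1:**
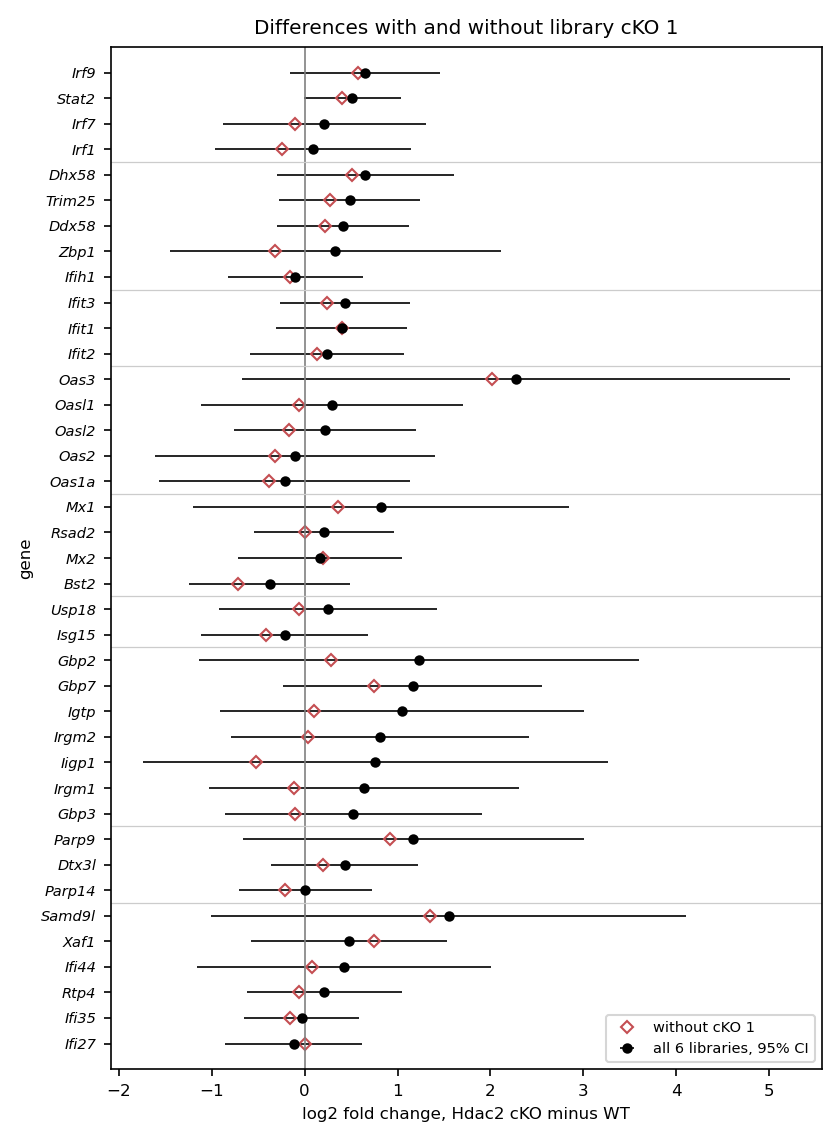
Log2 fold change (Hdac2 cKO minus WT) of each of the 39 genes, grouped by role. Black points and lines are the values over all 6 libraries with 95% confidence intervals, all of which hold 0. Red diamonds are the values without Hdac2 cKO 1, where 22 of 39 lie above 0.

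Groups did not overlap for 3 members, Stat2, Irf9 and Dhx58, all higher in Hdac2 cKO, where 4.63% of all genes were higher without overlap. None was lower without overlap (3.91% of all genes). Stat2 and Irf9 encode parts of ISGF3. Stat2 (ENSMUSG00000040033, mm10 chromosome 10, 128270559 to 128292849, plus strand) had values of 1612, 1346 and 1123 in WT and 2237, 1685 and 1888 in Hdac2 cKO. The group means were 1936 ± 279 in Hdac2 cKO and 1360.5 ± 245 in WT (SD, n = 3 each). The log2 fold change was 0.51, with a confidence interval from -0.01 to 1.04. Its knockout values lay above all WT values by a small margin, with WT 1 next to Hdac2 cKO 2.

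Irf9 (ENSMUSG00000002325, mm10 chromosome 14, 55603571 to 55610030, plus strand) had values of 574, 479 and 248 in WT and 711, 637 and 585 in Hdac2 cKO. WT 1 and Hdac2 cKO 3 were nearly level, and WT 3 was the low library. The log2 fold change of 0.65 (SE 0.34) was 0.29 without WT 3. Dhx58, which encodes LGP2, a regulator of RNA sensing (ENSMUSG00000017830, mm10 chromosome 11, 100694884 to 100704271, minus strand), had values of 66.2, 52.1 and 41.9 in WT and 101, 84.5 and 67.1 in Hdac2 cKO, and its log2 fold change was 0.65 (SE 0.41). An exact permutation test, two-sided, reached p = 0.1 for each of these 3 genes, and 3 against 3 libraries can go no lower. Any gene without overlap gives this p, so it adds nothing to the lack of overlap by which these genes were picked. Their adjusted p by limma was 0.927. Without Hdac2 cKO 1 the log2 fold changes were 0.41 for Stat2, 0.58 for Irf9 and 0.51 for Dhx58. That they stayed above 0 follows from the lack of overlap, whichever library is left out.

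**Figure D2:**
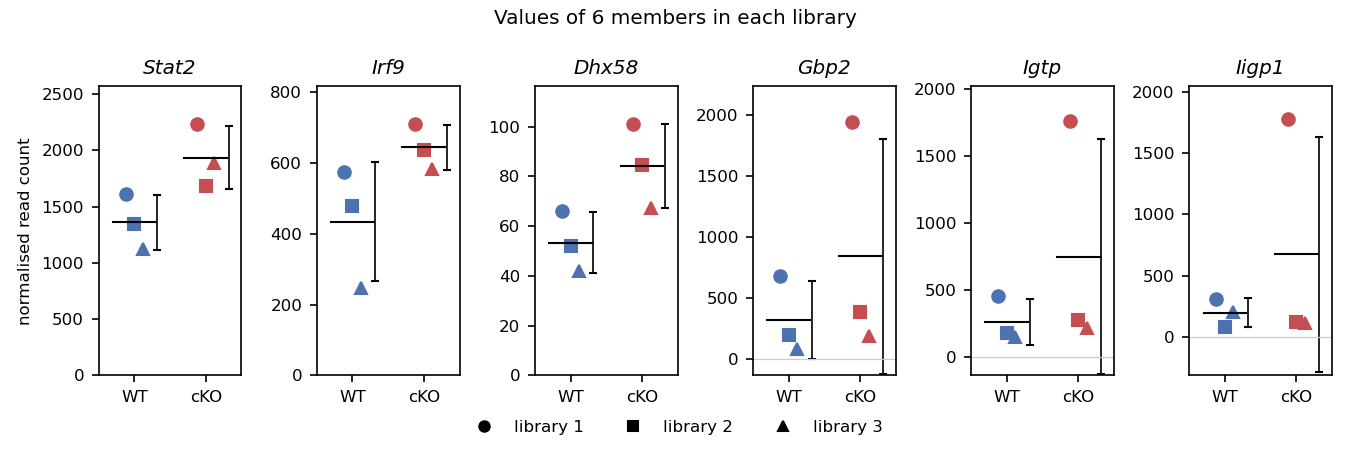
Normalised read counts of 6 members in each library, with the mean (line) and SD (bar) per group; marker shape gives the library number and each panel has its own axis. Stat2, Irf9 and Dhx58 do not overlap between groups, while Gbp2, Igtp and Iigp1 have 1 high library, Hdac2 cKO 1, and the other 5 mixed.

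The other transcription factors overlapped between groups. Irf7, the factor that amplifies type I interferon production, stood at 213, 103 and 88.9 in WT and 224, 126 and 108 in Hdac2 cKO. WT 1 and Hdac2 cKO 1 were the high libraries, level with each other and above the other 4. Irf1 stood at 604, 383 and 1054 in WT and 1051, 454 and 613 in Hdac2 cKO, so that WT 3 and Hdac2 cKO 1 were level and high. Its log2 fold change was 0.09 (SE 0.45) and turned to -0.24 without Hdac2 cKO 1. Some reads of Irf9 can come from Rnf31, which shares 123 exon bases on the same strand.

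Of the 5 genes of nucleic acid sensing, 4, Dhx58 among them, were above 0. Ddx58 encodes RIG-I, the sensor of short viral RNA, and stood at 722, 472 and 684 in WT and 1078, 878 and 586 in Hdac2 cKO (log2 fold change 0.42, SE 0.30). Trim25, a ubiquitin ligase that acts on RIG-I, stood at 988, 849 and 558 in WT and 1452, 1138 and 775 in Hdac2 cKO (log2 fold change 0.48, SE 0.32). In both, Hdac2 cKO 1 and 2 were the 2 highest libraries and Hdac2 cKO 3 lay within the WT range. Ifih1, which encodes MDA5, the sensor of long double-stranded RNA, was spread narrowly, at 240.0, 155 and 177 in WT and 189, 193 and 145 in Hdac2 cKO (log2 fold change -0.10, SE 0.31). Zbp1, a sensor of Z-form nucleic acid, stood at 68.8, 22.3 and 84.8 in WT and 161, 33.4 and 49.0 in Hdac2 cKO. It was highest in Hdac2 cKO 1 by 1.89 times the next library, and its log2 fold change turned from 0.33 to -0.32 without that library.

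Of the IFIT proteins, IFIT1 is known to bind viral RNA that lacks the host's cap methylation. All 3 IFIT genes, neighbours on chromosome 19, had log2 fold changes above 0, from 0.24 to 0.44, and overlapping groups. Ifit1 stood at 416, 342 and 678 in WT and 604, 543 and 676 in Hdac2 cKO. Ifit2 stood at 1206, 831 and 506 in WT and 1092, 1066 and 718 in Hdac2 cKO. Values of Ifit3 were 576, 449.7 and 339 in WT and 787, 571 and 486 in Hdac2 cKO. The members did not share 1 order of libraries, since WT 3 was the highest for Ifit1 and the lowest for Ifit2 and Ifit3. Ifit3 has a near-identical copy, Ifit3b, so its count is uncertain where reads could fall on either.

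The OAS genes encode enzymes, and related proteins, of the RNase L pathway that degrades viral RNA, and all 5 lie on chromosome 5. Oasl2, with the most reads of them, stood at 958, 750.4 and 502 in WT and 1427, 774 and 518 in Hdac2 cKO (log2 fold change 0.22, SE 0.42). Its paralog Oasl1 stood at 23.8, 55.1 and 38.8 in WT and 75.8, 50.1 and 25.2 in Hdac2 cKO. For both, Hdac2 cKO 1 was the highest library. Oas1a stood at 57.4, 65.5 and 176 in WT and 94.97, 100.3 and 44.1 in Hdac2 cKO. Oas2 stood at 30.9, 32.8 and 117 in WT and 61.6, 32.4 and 47.6 in Hdac2 cKO. WT 3 was the highest library for both of these. Oas3 was the lowest member of all 39, at 16.8, 0 and 4.09 in WT and 30.3, 31.5 and 9.09 in Hdac2 cKO, with 0 to 32 reads per library. Its log2 fold change of 2.28 (SE 1.26) has the widest interval of the set and, with 0 reads in WT 2, depends on the pseudocount. Its highest library was Hdac2 cKO 2. Oas1a also has close paralogs whose reads cannot be told apart with certainty.

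Among antiviral effectors, Bst2 encodes tetherin, which holds budding virus at the cell surface. It stood at 638, 445 and 769.6 in WT and 753, 391 and 339.9 in Hdac2 cKO, with WT 3 and Hdac2 cKO 1 high, and had the most negative log2 fold change of the set, -0.37 (SE 0.37). Rsad2, viperin, which makes a chain-ending nucleotide, stood at 373, 255 and 392 in WT and 515, 398 and 282 in Hdac2 cKO (log2 fold change 0.21, SE 0.32). The genes of the MX GTPases, which C57BL/6 mice carry as defective alleles, had few reads. Mx1 stood at 29.1, 11.9 and 5.11 in WT and 43.4, 13.8 and 18.9 in Hdac2 cKO. Mx2 stood at 81.2, 68.5 and 106 in WT and 88.9, 78.6 and 119 in Hdac2 cKO. Mx1 was thus higher in WT 1 and Hdac2 cKO 1 than in the other 4 libraries, and Mx2 varied little.

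Isg15 encodes a ubiquitin-like protein that is joined to other proteins in the interferon response, and Usp18 the protease that removes it and also damps the receptor. Isg15 stood at 140.3, 162 and 293 in WT and 213, 134 and 149 in Hdac2 cKO (log2 fold change -0.22, SE 0.39), highest in WT 3. Usp18 stood at 82.1, 43.2 and 102 in WT and 130.3, 59.0 and 79.7 in Hdac2 cKO (log2 fold change 0.25, SE 0.50). Neither gene separated the groups.

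The 7 GBP and IRG genes had the largest median log2 fold change of the role classes, 0.81, with all 7 above 0 and all with overlapping groups. Hdac2 cKO 1 was the highest library for each, at 2.75 to 13.9 times the median of the other 5 libraries. Iigp1 (ENSMUSG00000054072, mm10 chromosome 18, 60376027 to 60392634, plus strand), an effector IRG, had values of 313, 83.4 and 206 in WT and 1778, 128 and 116 in Hdac2 cKO. Igtp (ENSMUSG00000078853, mm10 chromosome 11, 58199556 to 58207591, plus strand), which encodes Irgm3, had values of 457, 174 and 144 in WT and 1761, 276 and 211 in Hdac2 cKO. In both genes Hdac2 cKO 2 and 3 lay among the WT values. Igtp was higher in the knockout library of every pair, and Iigp1 in the first 2 pairs only.

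Gbp2 (ENSMUSG00000028270, mm10 chromosome 3, 142620602 to 142638008, plus strand), a guanylate-binding protein, had values of 682, 194 and 81.8 in WT and 1946, 384 and 189 in Hdac2 cKO. Its means were 839.7 ± 963 in Hdac2 cKO and 319 ± 319 in WT (SD, n = 3 each), with an SD as large as the mean or larger in both groups, and its log2 fold change was 1.23 (SE 1.01). DESeq2 with a replicate block, comparing same-numbered libraries, called Gbp2 higher (adjusted p = 0.0109), the only member of 39 it called, where 0.429% of all genes were. Within each pair the knockout library was higher, with 1946 against 682, 384 against 194 and 189 against 81.8. Without Hdac2 cKO 1 and without a block its log2 fold change was 0.28.

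Gbp3 stood at 508, 235 and 237 in WT and 1049, 239 and 338 in Hdac2 cKO. Gbp7 stood at 601, 326 and 137 in WT and 1189, 432 and 589.6 in Hdac2 cKO. Gbp7 kept the largest log2 fold change of the class without Hdac2 cKO 1, at 0.75, against 1.16 (SE 0.59) with all libraries. Without WT 3 its log2 fold change was 0.60, and without both of these libraries it was 0.19. The regulatory IRGs, which guard the cell's own membranes from the effectors, include Igtp, Irgm1 and Irgm2. Irgm1 stood at 426, 128 and 309.7 in WT and 1133, 261 and 216 in Hdac2 cKO. Irgm2 stood at 502, 223 and 231 in WT and 1519.6, 380.4 and 243 in Hdac2 cKO. Both were highest in Hdac2 cKO 1 by 2.66 and 3.03 times the next library. Without that library the class median went from 0.81 to 0.04, with 4 of 7 genes above 0. Over the removal of each single library it ran from 0.04 to 1.37. Igtp and Irgm2 overlap by 162 exon bases on the same strand, and Gbp7 shares 637 with a processed pseudogene, so their counts are not fully separate.

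Parp9 and Dtx3l encode partners in a complex of ADP-ribosyl transferase and ubiquitin ligase, and Parp14 a further transferase. Parp9 stood at 259, 225 and 31.7 in WT and 393, 244 and 225 in Hdac2 cKO. Dtx3l stood at 442, 323 and 235 in WT and 599, 388 and 353 in Hdac2 cKO. Parp9 was low in WT 3 alone, and its log2 fold change went from 1.17 to 0.21 without that library. The 2 genes lie head to head on opposite strands with 458 shared exon bases, so their reads cannot be told apart there without strand information. Parp14 stood at 710.3, 468 and 747 in WT and 851, 616 and 479.8 in Hdac2 cKO (log2 fold change 0.01, SE 0.31), with overlapping groups.

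Of the remaining 6 members, Samd9l, an antiviral inhibitor of translation, stood at 686, 378 and 27.6 in WT and 758, 651 and 376 in Hdac2 cKO. WT 3 was the low library, and the log2 fold change of 1.55 became 0.16 without it. Xaf1, a pro-apoptotic factor, stood at 1156, 379.7 and 529 in WT and 589, 1123 and 948 in Hdac2 cKO, high in WT 1, Hdac2 cKO 2 and Hdac2 cKO 3 and not in Hdac2 cKO 1. Ifi27, a mitochondrial and nuclear membrane protein, stood at 4309, 5474 and 8903 in WT and 4631, 5043 and 7028 in Hdac2 cKO (log2 fold change -0.12, SE 0.31). Ifi35, a cytoplasmic partner of NMI, stood at 399.7, 414 and 368 in WT and 463, 291 and 424 in Hdac2 cKO. Its groups overlapped, with Hdac2 cKO 2 lowest. Ifi44 stood at 49.4, 19.4 and 16.4 in WT and 55.6, 20.6 and 34.3 in Hdac2 cKO. Rtp4, an inhibitor of viral replication, stood at 169, 128 and 128 in WT and 237, 127 and 143 in Hdac2 cKO. Both were highest in Hdac2 cKO 1.

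Levels between genes were compared as normalised read counts per kilobase of exon, over the mean of all 6 libraries. The median member had 88.3 per kilobase. Ifi27 was far above the rest at 4020.5, followed by Bst2 at 616, Ifit3 at 307 and Stat2 at 278. The lowest were Oas3 at 2.16, Ifi44 at 5.32 and Mx1 at 5.38. In whole-ganglion RNA fewer cells of a type and less RNA per cell cannot be told apart, and the cells behind each level are not known.

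**Figure D3:**
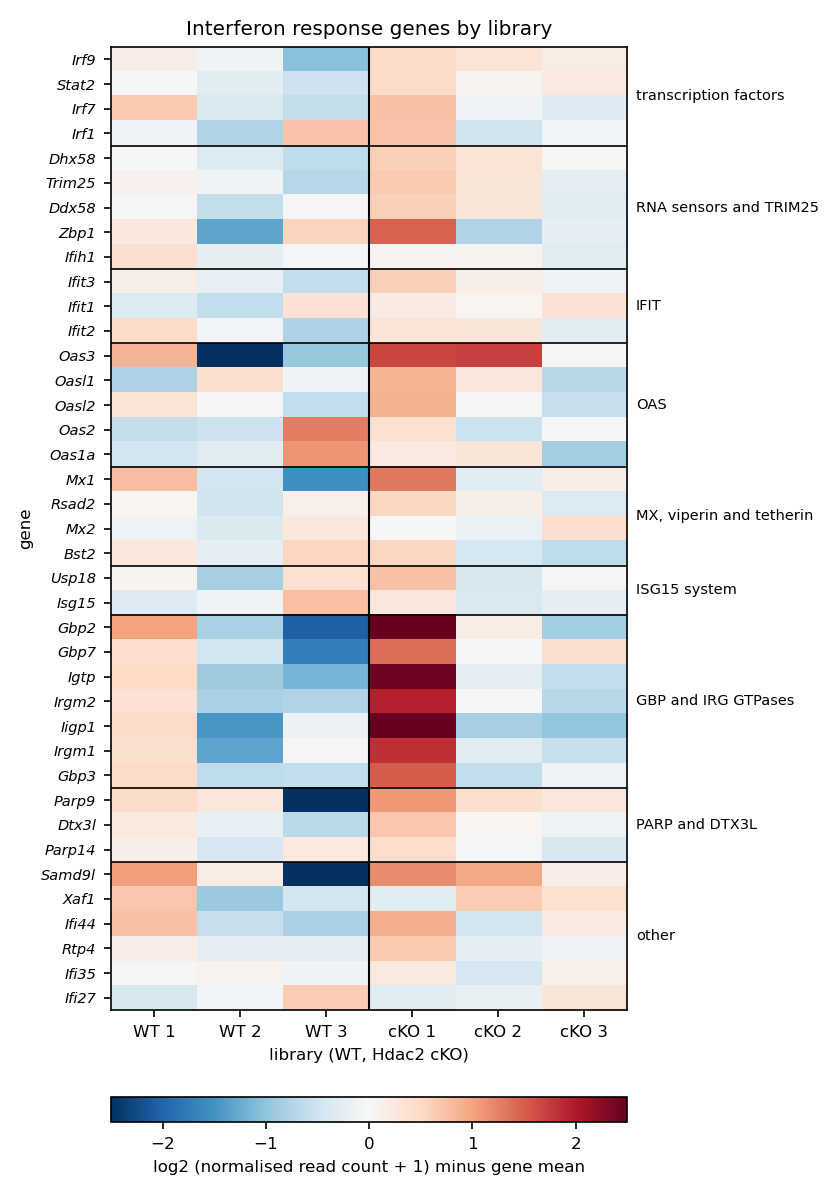
Log2 (normalised read count + 1) minus the gene's mean over the 6 libraries, for the 39 genes (rows, grouped by role) in each library (columns); colours are limited to -2.5 and 2.5. The column of Hdac2 cKO 1 is above the mean in most rows and most of all in the GBP and IRG genes, while WT 2 is below it in most rows.

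Counted by library, Hdac2 cKO 1 held the highest value of the 6 libraries for 27 of the 39 genes, where it did so for 14.1% of all genes tested. WT 3 held it for 7 members (30.5% of all genes), WT 1 for 3 (11.9%), Hdac2 cKO 2 for 1 (12.4%), Hdac2 cKO 3 for 1 (14.9%) and WT 2 for 0 (16.2%). By at least 2-fold above the next library, Hdac2 cKO 1 was highest for 6 of the 39, all of them GBP or IRG genes, where it was so for 0.326% of all genes. The seventh of that class, Gbp7, was 1.98 times the next. Outside the class Hdac2 cKO 1 was highest for 20 of 32 members and by 1.89 times at most. WT 3 held the lowest value for 16 members, or 41.0%, close to its 40.7% of all genes. WT 2 held it for 14, or 35.9%, against 12.8% of all genes. These counts describe the libraries and were not tested.

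**Figure D4:**
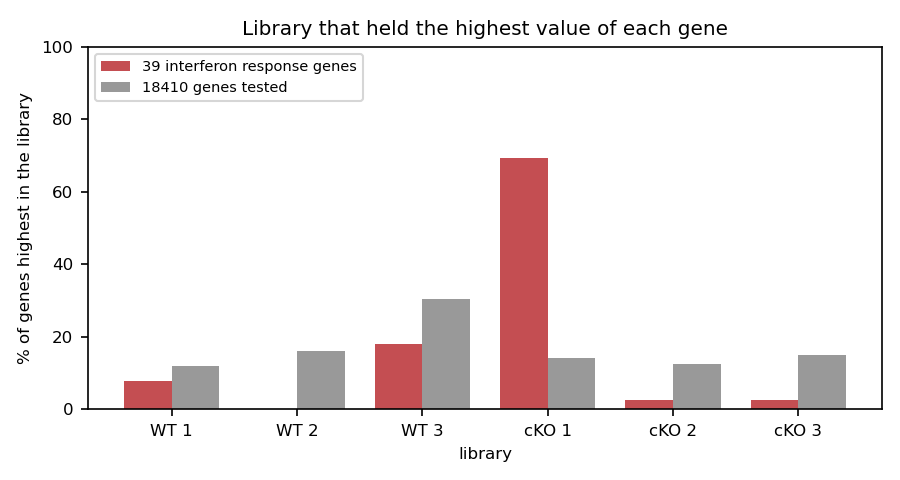
Percent of genes whose highest value lay in each library, for the 39 interferon response genes and for all 18410 genes tested. Hdac2 cKO 1 holds 69.2% of the members against 14.1% of all genes.

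As a level, the median over members of the log2 value minus the gene's mean was 0.24, -0.39 and -0.45 in WT and 0.66, -0.03 and -0.09 in Hdac2 cKO. For the GBP and IRG genes it was 0.45, -0.81 and -0.76 in WT and 1.95, -0.24 and -0.62 in Hdac2 cKO, and for the other 32 members 0.16, -0.28 and -0.16 in WT and 0.60, 0.05 and -0.08 in Hdac2 cKO. Hdac2 cKO 1 was thus highest in both sets, and WT 1 came next. The SD between libraries of a group, for the level over all 39, was 0.40. The median log2 fold change over the members was 0.42, which is another measure. The SD describes single libraries and is not the error of a difference between group means.

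Immune cells carry many of these genes, and their markers also differed between libraries. Macrophage markers (13) summed to 12184, 5435 and 3066 in WT and 10637, 12215 and 3636 in Hdac2 cKO. Granulocyte and monocyte markers (11) summed to 25235, 1415 and 571 in WT and 14543, 23022 and 251 in Hdac2 cKO. Lymphocyte markers (11) summed to 745, 169.7 and 150.2 in WT and 546, 729 and 129 in Hdac2 cKO. WT 1, Hdac2 cKO 1 and Hdac2 cKO 2 were thus high in all 3 lists, and the other libraries low. Erythroid markers (5) moved with the same libraries, at 51556, 7001 and 2696 in WT and 49638, 75549 and 1305 in Hdac2 cKO. On the scale of the level used above, macrophage markers stood at 0.62, -0.07 and -1.27 in WT and 0.85, 0.58 and -0.76 in Hdac2 cKO. On that scale the same 3 libraries led, in the same order, for the macrophage markers, for the 39 members and for the GBP and IRG genes. By the sums of macrophage markers, Hdac2 cKO 1 was the lowest of the 3. It was also the lowest of them by level for lymphocyte markers (1.27, against 1.37 in WT 1 and 1.43 in Hdac2 cKO 2). The same held for granulocyte and monocyte markers (2.07, against 2.47 and 2.34). The steps between libraries differed too, since Hdac2 cKO 1 and 2 were 0.85 and 0.58 for macrophage markers and 1.95 and -0.24 for the GBP and IRG genes. No marker in the first 3 lists was at 0 in all libraries, and 12, 9 and 6 of them, in the order given, were above 0 in every library. Of the plasmacytoid dendritic cell list, whose cells produce type I interferon, the sums overlapped between groups, at 2449, 1913 and 4261 in WT and 2474, 2259.6 and 3396 in Hdac2 cKO; that list holds Bst2 itself. Satellite glia markers summed to 161616, 182100.0 and 409351 in WT and 132947, 160390.0 and 189526 in Hdac2 cKO, highest in WT 3. Markers of 2 other cell types did not overlap between groups: those of myelinating Schwann cells summed to 343800.0, 343239 and 230935 in WT and 182326, 211534 and 127057 in Hdac2 cKO, and those of skeletal muscle to 8476, 3533 and 1574 in WT and 179, 1059 and 89.5 in Hdac2 cKO, both lower in the knockout. The part of these cells in the members' values was not tested.

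**Figure D5:**
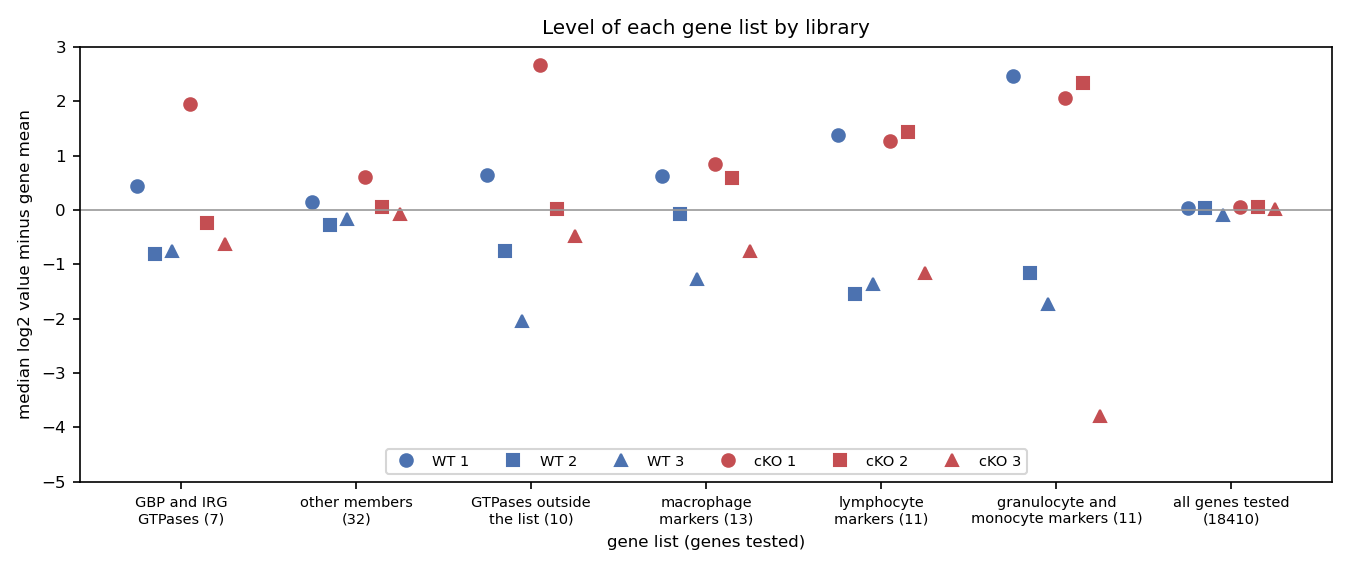
Median over genes of the log2 value minus the gene's mean, by library (blue WT, red Hdac2 cKO; circle, square and triangle for libraries 1, 2 and 3), for members, for GTPase genes outside the list and for immune cell markers. Hdac2 cKO 1 stands above all other libraries in the GTPase genes, while in the immune marker lists WT 1, Hdac2 cKO 1 and Hdac2 cKO 2 are high together.

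Of the interferon receptors, sensors and signalling genes outside the 39, 31 of 32 were tested. Of these 23 were above 0 and 8 below, with a median log2 fold change of 0.23 (0.08 without Hdac2 cKO 1), and 0 passed limma's test. With array weights 2 of the 31 were called higher, Ifnlr1 and Ikbke, where 3.08% of all genes were called in either direction. For the type I receptor, Ifnar1 stood at 1691, 1464 and 699 in WT and 1839, 1589 and 1110.0 in Hdac2 cKO. Ifnar2 stood at 605, 582 and 441 in WT and 543, 564 and 435 in Hdac2 cKO. Ifngr1 of the gamma receptor stood at 1220.3, 1114 and 325 in WT and 1144, 1215 and 987 in Hdac2 cKO. Ifnar1 and Ifngr1 were lowest in WT 3. The 3 genes with the smallest p were Ifnlr1, the lambda interferon receptor (log2 fold change 1.68, SE 0.79), Jak1 (log2 fold change 0.59, SE 0.33) and Tyk2 (log2 fold change 0.47, SE 0.29).

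Of 59 other interferon-stimulated genes, 56 were tested, with 45 above 0 and 11 below, a median of 0.51 and 0 passing limma's test. Without Hdac2 cKO 1 the median was 0.17, with 30 above 0, where the median of all genes was 0.05. Without WT 3 it was 0.18, with 41 above 0, where the median of all genes was -0.01. Herc6, the mouse ligase for ISG15, had the smallest p (log2 fold change 1.70, SE 0.67). It was the only 1 of the 56 at an unadjusted p under 0.05 by limma, where 1.85% of all genes were. Herc6 stood at 176, 73.0 and 25.6 in WT and 294, 230.0 and 173 in Hdac2 cKO. Next by p came Gbp8 (log2 fold change 2.89, SE 1.53) and Ddx60 (log2 fold change 0.87, SE 0.47). The list held 10 further GBP and IRG genes, a group formed after values were seen. Hdac2 cKO 1 was the highest library for 9 of these 10, and by at least 2-fold for 8. Gbp10 stood at 21.2, 5.96 and 0 in WT and 349, 22.6 and 4.20 in Hdac2 cKO, with 0 reads in WT 3. Gbp9 stood at 222, 258 and 177 in WT and 1208, 203 and 169 in Hdac2 cKO. Ifi47 stood at 214, 70.0 and 75.6 in WT and 784, 128 and 68.5 in Hdac2 cKO. These 3 genes had the same high library as the members of their family. Of the 56, array weights called 3 higher, Ifit3b, Herc6 and Trim56, where 3.08% of all genes were called in either direction. DESeq2 with the replicate block called 1 of the 56, Gbp10, higher, where it called 0.429% of all genes in either direction.

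Interferon genes themselves had almost no reads. Of 21 type I, II and III genes, 14 had 0 reads in every library. Ifng, the gene of interferon gamma, had 4 reads in Hdac2 cKO 1, 2 in Hdac2 cKO 3 and 0 in the other libraries. A count of 0 allows up to 3 reads by counting error, so counts of this size are too low to order the libraries. Ifnb1 had 12 reads and Ifna13 14 in WT 3, and 0 elsewhere. WT 3 held 51 reads over 5 interferon genes, against 0 to 8 in the other libraries. It was the highest library for 7 members, Irf1, Ifit1, Ifi27, Isg15, Oas1a, Oas2 and Bst2. These were 17.9% of the 39, where WT 3 was highest for 30.5% of all genes. It was the highest for none of the GBP and IRG members. A link between these reads and the members' values was not tested.

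Among genes outside the 39, the 10 whose values most followed the members' mean profile (each member centred and scaled over the 6 libraries) were Nlrc5, Ifi213, Abraxas1, Mmp12, Mmp19, Cd274, Ifi47, Fem1c, Dnajb14 and Slfn8, with Pearson's r from 0.96 to 0.99 over 6 libraries. The 6 points share their libraries and size factors with the profile, and r over 6 points among 18410 genes is a description only. Nlrc5, the activator of MHC class I genes, stood at 226, 61.0 and 81.8 in WT and 618, 161 and 104 in Hdac2 cKO. Cd274, which encodes the checkpoint ligand PD-L1, stood at 431, 189 and 330.1 in WT and 900.2, 305 and 282 in Hdac2 cKO. Both were highest in Hdac2 cKO 1. The members themselves followed the profile with r from -0.55 (Ifi27) to 0.98 (Irgm2), 38 of 39 above 0, as each member enters the profile.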

How the data were processed

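The authors deposited 1 table of gene signal values for the 6 libraries. The submitters' processing notes name HISAT2, SAMtools, featureCounts, DESeq2 and the build mm10; the sources used here give no versions, annotation or strand setting. The deposited values are reads scaled by 1 factor per library: in units of the smallest value above 0 of its column, 100% of values were whole within 0.01, and these recovered reads served the count tests. Columns were matched to samples by name. Symbols, coordinates and exon lengths came from GENCODE M21 (GRCm38), which matched 54495 identifiers.

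The main test was limma 3.58.1 (R 4.3.3), two-sided, on log2 (value + 1) with trend and robust variances. It covered 18410 genes that reached 10 in 3 or more libraries, with Benjamini-Hochberg adjustment over all of them and a threshold of 0.05. This scale understates fold changes of low genes. Alternatives were edgeR 4.0.16 and DESeq2 1.42.0, limma-voom, other scalings, pseudocounts and filters, a replicate block, a Y-linked term, array weights, leaving out libraries and, after values were seen, leaving out pairs. Scripts were tested on simulated data.

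The members and gene lists were chosen with earlier results of these data known. Values per library are given for the transcription factors, for the most abundant member and the 2 smallest p of each role class, for members without overlap and, for completeness, for the other members. The 3 smallest p are named per other list, as are the 10 genes most like the members' profile. The role classes, the GTPases outside the list, Ifnar1, Ifnar2, Ifngr1 and the interferon genes named were chosen after values were seen.

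Nothing says that libraries came from separate mice, so p-values measure the spread between libraries. To check for pairing, each library was centred on its group's mean; same-numbered libraries 1, 2 and 3 then correlated over genes by 0.40, 0.15 and 0.42. All exceeded 0.1, so numbers were treated as pairs, a reading of the data that the labels do not state; WT 1 and Hdac2 cKO 2 also correlated, by 0.34. Replicates differed beyond sampling noise, with a chi-square per gene of at least 15.9.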

Additional observations from a re-analysis of the deposited data

How the results depend on the processing

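Over 25 alternatives, 0 of the 39 members passed the threshold in all but 2. With DESeq2 and the replicate block 1 did (Gbp2), and with array weights 3 did (Ifit1, Oas3 and Ddx58). With the replicate block in limma the count was 0. Members with a log2 fold change above 0 numbered 29 to 36 in alternatives that kept all libraries, with medians of 0.25 to 0.50. Leaving out each library in turn gave 0 members past the threshold, 22 to 34 above 0 and medians of 0.038 to 0.60. Without both WT 3 and Hdac2 cKO 1, chosen after seeing the data, 19 were above 0 and the median was -0.0286. With the replicate block and both libraries numbered 1, 2 or 3 left out in turn, also chosen after seeing the data, 28, 30 and 36 were above 0, with medians of 0.28, 0.33 and 0.46 and 0 past the threshold. With a filter of 50 in 3 libraries 35 members were tested. Among 971 values of single members, 82 had the opposite sign to the reported one, in 30 genes, and the cause was not tested. Parp14, near 0 throughout, turned to -0.0071 with edgeR and RLE scaling, -0.014 with TMM, -0.0076 with DESeq2, -0.0098 with DESeq2 and the replicate block and -0.049 with limma-voom. The Y-linked term turned Irf1 to -0.036, Irf7 to -0.028, Oas1a to 0.037, Parp14 to -0.046 and Zbp1 to -0.0074. Array weights turned Oas1a to 0.50, Oas2 to 0.33, Bst2 to 0.067 and Ifih1 to 0.19. Leaving out both libraries numbered 3 turned Isg15 to 0.16, Oas1a to 0.66, Oas2 to 0.48 and Bst2 to 0.026. The replicate block turned Irf1 to -0.27, Oasl1 to -0.37, Ifih1 to 0.017, Iigp1 to -0.11, Parp14 to -0.12 and Zbp1 to -0.11 without the libraries numbered 1, Ifi35 to 0.21, Rsad2 to -0.0060, Parp14 to -0.19 and Xaf1 to -0.066 without those numbered 2, and the same 4 genes by the same values as above without those numbered 3. With each single library, or both WT 3 and Hdac2 cKO 1, left out, the members that turned ranged as follows: Dtx3l -0.029 to 0.66, Gbp2 -0.43 to 2.04, Gbp3 -0.28 to 0.96, Ifi27 -0.35 to 0.29, Ifi35 -0.21 to 0.17, Ifi44 -0.21 to 0.90, Ifih1 -0.24 to 0.075, Ifit2 -0.19 to 0.54, Igtp -0.22 to 1.62, Iigp1 -0.52 to 1.44, Irf1 -0.26 to 0.46, Irf7 -0.34 to 0.60, Irgm1 -0.11 to 1.08, Irgm2 -0.14 to 1.36, Isg15 -0.43 to 0.10, Mx1 -0.20 to 1.41, Mx2 -0.0055 to 0.37, Oas1a -0.51 to 0.29, Oas2 -0.43 to 0.51, Oasl1 -0.060 to 0.72, Oasl2 -0.42 to 0.56, Parp14 -0.21 to 0.20, Parp9 -0.041 to 1.70, Rtp4 -0.13 to 0.39, Samd9l -0.041 to 2.46, Usp18 -0.11 to 0.51 and Zbp1 -0.32 to 0.79. Oas3 had 0 to 32 reads per library, so its values carry a large counting error beside the spread between libraries.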
